A study of Mus musculus with 4 samples.

Results

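MicroRNA genes encode short hairpins whose reads were followed here in mouse embryonic fibroblasts given different sets of reprogramming factors. The 55 genes described are those with a microRNA symbol (Mir or Mirlet and a number, transcripts named as hosts left out) and 1 RPKM or more in any of the 4 groups. RPKM are reads per kilobase of gene, scaled to the reads of the library. The tables list 176 microRNA symbols, of which 121 stayed under 1 RPKM in every group, among 27597 listed genes. The values themselves thus chose the genes, and presence above 1 RPKM is no finding. Just inside the threshold by highest value were Mirlet7b at 1.06 RPKM, Mir3068 at 1.09 RPKM and Mir143 at 1.11 RPKM. Just outside were Mir711 and Mir453, both at 0.9997 RPKM, and Mir369 at 0.923 RPKM.

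All 4 groups were fibroblasts from the embryonic skin of strain OGXICR at D13.5, infected through a doxycycline-inducible lentiviral system. They were given an empty vector, the set SKM (c-MYC, KLF4 and SOX2), OSKM (OCT4 with the same 3 factors) or G3SKM (GATA3 with the same 3 factors). Every group has 1 value per gene that combines 2 replicates, so no difference can be weighed against replicate variation and no test is given. In bulk samples such as these, fewer cells that use a gene and less RNA per cell cannot be told apart. The rule of size calls a gene higher or lower once the log2 ratio of RPKM + 1 reaches 1 in either direction. Only genes that reach 1 RPKM in either group of a comparison enter it. A gene can enter a comparison through its higher group alone, so counts of calls describe the genes and support nothing. Folds divide the RPKM as deposited, with nothing added, and the range in brackets is a 95% Clopper-Pearson interval on reads recovered from the values. It covers counting error only, and amplified reads make it too narrow.

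In the cell, a long primary transcript is cut in the nucleus by Drosha and its partner Dgcr8 into a hairpin, which Xpo5 exports. Dicer1 then cuts the hairpin, and 1 of its arms is loaded onto an Argonaute protein, where the seed, bases 2 to 8 of the mature strand, pairs with target messenger RNAs. Many hairpins lie inside other genes and are transcribed with them. Mature microRNAs are shorter than the sonicated cDNA fragments that were sequenced, so reads over a hairpin count longer RNA, the primary transcript or the host gene's RNA, and say nothing of the mature strand.

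RefSeq (GRCm38.p6) held 49 of the 55 genes, and Mir5117, Mir1949, Mir1901, Mir1893, Mir145a and Mir143 were not matched. The mature strands that the results turn on are printed 5′ to 3′ with the seed in capitals and grouped by shared seed, since a shared seed means overlapping targets. All positions given are on GRCm38, whereas the reads were placed on mm9. The first lines are the 3 let-7 strands, which share the seed GAGGUAG.
let-7i-5p (chr10:122985698-122985719, minus strand): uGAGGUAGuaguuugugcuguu
let-7b-5p (chr15:85707325-85707346, plus strand): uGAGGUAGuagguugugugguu
let-7c-5p (chr15:85706616-85706637, plus strand): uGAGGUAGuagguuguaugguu
The miR-25 and miR-92a strands come from different clusters of one family and share AUUGCAC.
miR-25-3p (chr5:138165332-138165353, minus strand): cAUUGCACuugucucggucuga
miR-92a-3p (chr14:115044476-115044496, plus strand): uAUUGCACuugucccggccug
The strands of Mir214 and Mir761, which lie on different chromosomes, share CAGCAGG.
miR-214-3p (chr1:162223438-162223459, plus strand): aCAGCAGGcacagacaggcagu
miR-761 (chr4:109017669-109017690, plus strand): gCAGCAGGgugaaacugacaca
Mir1906-1 and Mir1906-2 give one mature strand from identical hairpins.
miR-1906 (chr12:109544588-109544609, plus strand, and chrX:88759485-88759506, minus strand): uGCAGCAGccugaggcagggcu
The remaining strands have a seed that no other of the 49 matched genes shares, and stand for the genes whose levels are compared with a long host RNA or with the groups.
miR-199a-5p (chr1:162217844-162217866, plus strand): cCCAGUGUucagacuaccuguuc
miR-22-3p (chr11:75463772-75463793, plus strand): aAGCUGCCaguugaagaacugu
miR-21a-5p (chr11:86584120-86584141, minus strand): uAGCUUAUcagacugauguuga
miR-27a-3p (chr8:84208727-84208747, plus strand): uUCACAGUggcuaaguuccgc
miR-196a-5p (chr11:96265187-96265208, plus strand): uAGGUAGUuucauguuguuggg
miR-877-5p (chr17:35960795-35960814, minus strand): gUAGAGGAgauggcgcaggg
miR-1981-5p (chr1:184822465-184822488, minus strand): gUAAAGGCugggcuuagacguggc
Mir675, by reads the best covered of the genes with no close copy, is shown as its whole hairpin of 84 bases, with both mature arms in capitals.
Mir675 hairpin (chr7:142577064-142577147, minus strand): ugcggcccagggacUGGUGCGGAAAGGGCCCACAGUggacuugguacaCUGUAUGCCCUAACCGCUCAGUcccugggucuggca

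The hairpins measured 63 to 141 bases (median 84) and held 31.0% to 82.9% GC (median 55.6%). In the GENCODE M21 annotation 47 of the 55 lie inside another gene on the same strand, 2 overlap a gene on the opposite strand only and 6 lie in no other gene. By position, 21 overlap an exon of a protein-coding gene, 15 an exon of a non-coding gene and 11 an intron. The annotation types 52 of the genes as miRNA and 3, Mir5117, Mir1949 and Mir3068, as snoRNA. The sources used here do not say whether the counting used strand, so a hairpin and RNA from the other strand cannot be told apart.

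Reads were few. At the median length, 1 read is worth 0.108 RPKM with empty vector, 0.223 with SKM, 0.161 with OSKM and 0.119 with G3SKM. Of the 55 genes 17 had fewer than 20 reads in every group, and 7 had 100 or more in every group. Recovered library depths were 111 M reads (mega-reads) with empty vector, 54.0 M with SKM, 74.7 M with OSKM and 102 M with G3SKM. At 1 RPKM or more there were 37 of the 55 with empty vector, 44 with SKM, 36 with OSKM and 51 with G3SKM, with 31 in all 4 groups and 11 in a single group. The summed RPKM of 11 of 11 fibroblast markers ran from 381 with G3SKM to 883 with empty vector. Col1a1 and Vim carried most of that sum. Dcn (0.259 RPKM with empty vector, 1.21 with OSKM) and Lum (0.359 and 1.16) went the other way, and Col1a1 was at 332 RPKM with empty vector and 352 with SKM. The sum of 7 macrophage markers was 31.7 RPKM with empty vector and 1.92 to 4.29 in the factor groups. That of 5 keratinocyte markers was 0.0818 RPKM with empty vector and 21.9 to 44.9 in the factor groups. Krt14 and Krt17 carried nearly all of the latter, while Krt5, Krt15 and Trp63 stayed at or below 0.128 RPKM in every group. The part of these marker differences in the results was not tested.

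**Figure D1:**
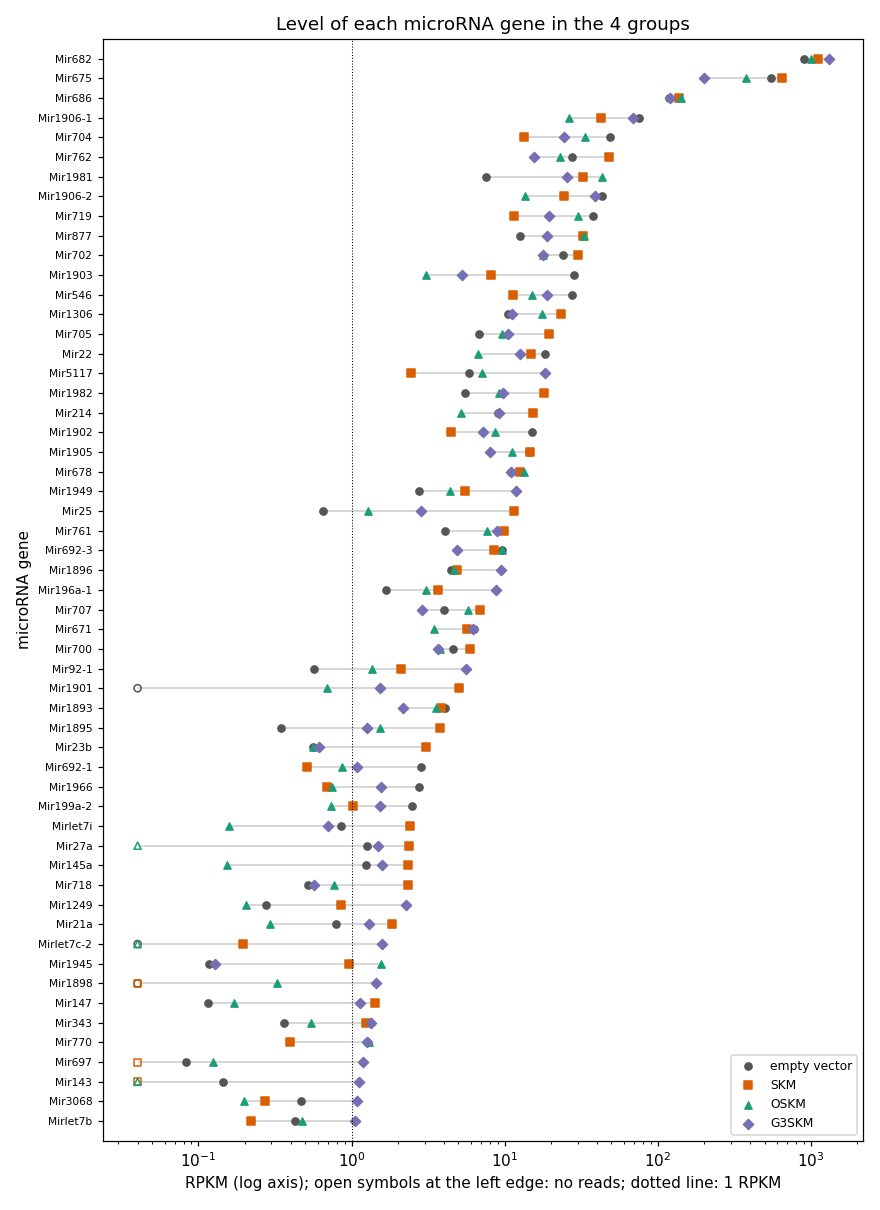
Level of each of the 55 microRNA genes (rows, ordered by highest value) in RPKM on a log axis, with 1 symbol per group and open symbols at the left edge for no reads. Mir682, Mir675 and Mir686 stand above all others in every group, and 31 of the 55 lie right of the dotted line at 1 RPKM in all 4 groups.

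The highest values belonged to a few hairpins, and most of those sit in abundant exons or have near copies elsewhere. In each group the first 3 genes, Mir682, Mir675 and Mir686, took 77.1% to 81.0% of all reads over the 55. Mir682, which lies on chromosome 13 in the pseudogene Gm4149, stood at 907 RPKM with empty vector, 1118 with SKM, 1008 with OSKM and 1318 with G3SKM. Of its 96 bases 95 are found in Rpl37a, the messenger RNA of a large-subunit ribosomal protein, and Rpl37a is among 9 genes that match it at 95% identity or more. Mir686, in a coding exon of the proteasome subunit gene Psmb5 on chromosome 14, was at 119 RPKM with empty vector, 137 with SKM, 141 with OSKM and 121 with G3SKM. Neither of the 2 was called in any of the 6 comparisons.

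Close copies also touch Mir692-1, Mir692-3 and the 2 copies of Mir1906. Mir692-3 overlaps a coding exon of Ftl1-ps1, and both Mir692 hairpins match Ftl1, a ferritin light chain, at over 95% of their bases. Mir692-3 was at 9.58 RPKM with empty vector, 8.57 with SKM, 9.66 with OSKM and 4.92 with G3SKM. Mir692-1 was at 2.83 RPKM with empty vector against 0.514 with SKM, 0.867 with OSKM and 1.09 with G3SKM. How reads that fit several places were assigned is not given in the sources used here, so the values of these 6 genes are uncertain.

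Imprinted loci held the best covered hairpin without such a copy. Mir675 lies in an exon of H19, a maternally expressed growth-restraining non-coding RNA. Mir675 was at 548 RPKM (5057 reads) with empty vector, 649 (2911 reads) with SKM, 377 (2340 reads) with OSKM and 202 (1698 reads) with G3SKM. It was highest with SKM and lowest with G3SKM, where it was 2.72-fold lower than with empty vector (2.58 to 2.88) and 3.22-fold lower than with SKM (3.03 to 3.42). The lower value with OSKM than with empty vector, with a log2 ratio of -0.54, stayed under the rule.

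H19 itself ordered the groups differently. Per exon length it was at 312 RPKM with empty vector, 166 with SKM, 137.5 with OSKM and 96.1 with G3SKM, so it was lower with SKM than with empty vector (log2 ratio -0.91 on the gene's deposited values) while Mir675 was not (0.24). After removal of the trend with GC content described below, the log2 ratio of Mir675 with SKM against empty vector was -0.21. OSKM and G3SKM against empty vector were negative for both the hairpin and H19.

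Meg3, the maternally expressed non-coding RNA of the Dlk1-Dio3 region on chromosome 12, contains Mir1906-1 and Mir770. Mir1906-1 was at 75.5 RPKM with empty vector, 42.9 with SKM, 26.4 with OSKM and 68.8 with G3SKM. Its copy Mir1906-2, in Gm27000 on chromosome X, was at 43.2, 24.4, 13.5 and 39.3 RPKM in the same order of groups, a level below that of Mir1906-1 in each group. Both were lowest with OSKM, and Mir1906-1 was 2.86-fold lower there than with empty vector (2.40 to 3.42) and 2.60-fold lower than with G3SKM (2.18 to 3.13). Meg3 had log2 ratios of -1.20 and -1.21 in the same comparisons. Mir770 had only 2 to 13 reads per group and stood at 1.26 RPKM with empty vector, 0.398 with SKM, 1.29 with OSKM and 1.27 with G3SKM. A list of 52 annotated hairpins of the Dlk1-Dio3 region held Mir770 but not Mir1906-1. Of those 52, 18 were in the tables and Mir770 alone reached 1 RPKM.

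**Figure D2:**
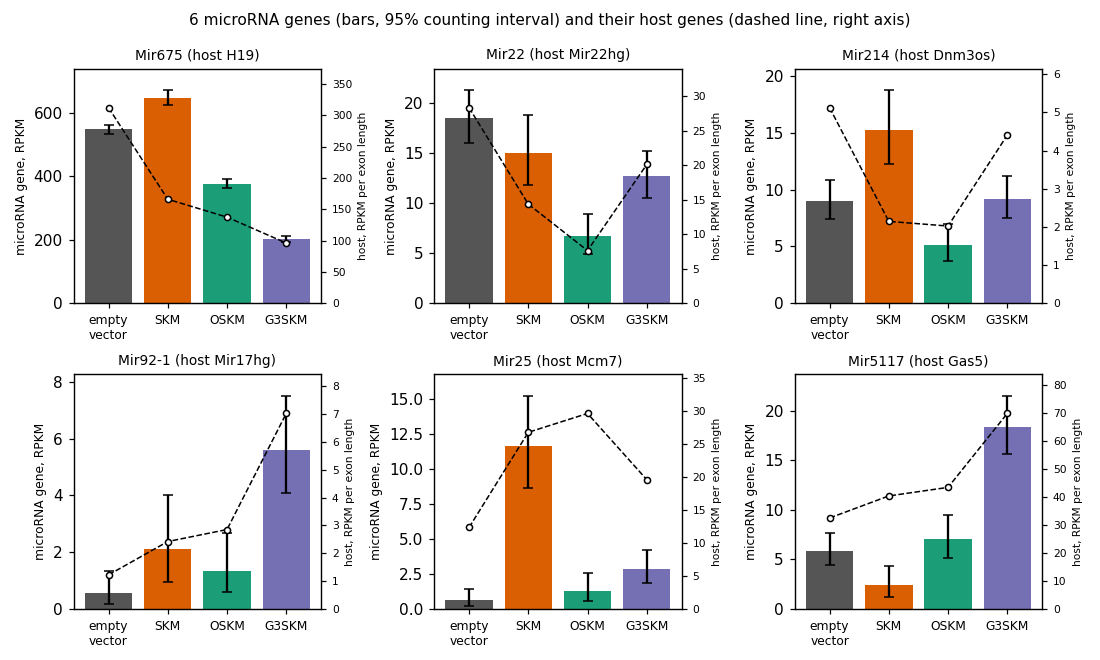
Bars give the RPKM of 6 microRNA genes in the 4 groups with 95% counting intervals (left axes, from 0), and the dashed line gives the host gene in RPKM per exon length (right axes, from 0). Mir22, Mir92-1 and Mir5117 have the same highest group as their hosts, whereas Mir675, Mir214 and Mir25 are highest with SKM and their hosts are not.

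Fibroblasts and other mesenchymal cells are known for miR-22, miR-21, miR-23b, miR-27a, miR-143, miR-145, miR-199a and miR-214. Of 28 annotated genes listed as mesenchymal, 19 were in the tables and 8 reached 1 RPKM. By the rule, 1 was higher (Mir23b) and 0 lower with SKM than with empty vector, beside 8.88% and 5.98% of all genes. With OSKM 0 were higher and 3 lower than with empty vector (Mir22, Mir199a-2 and Mir27a), beside 4.82% and 4.16%. With G3SKM against empty vector 0 were called, beside 7.11% and 3.75%. Genes under 1 RPKM in both groups did not enter: Mir143 with SKM, Mir23b with G3SKM, and Mir21a, Mir23b and Mir143 with OSKM.

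Mir22, in an exon of its own host transcript Mir22hg on chromosome 11, was at 18.5 RPKM with empty vector, 15.0 with SKM, 6.69 with OSKM and 12.7 with G3SKM. OSKM was lowest, 2.76-fold under empty vector (2.00 to 3.88) and 2.24-fold under SKM (1.53 to 3.29). With the GC trend removed, the log2 ratio against SKM went from -1.05 to -0.79, under the rule. The counting intervals of the level itself ran from 4.92 to 8.90 RPKM with OSKM and from 15.96 to 21.3 RPKM with empty vector, and did not overlap. Mir22hg was also lowest with OSKM, at 7.62 RPKM per exon length against 28.3 with empty vector.

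Mir214 and Mir199a-2 lie in exons of Dnm3os, a non-coding RNA on the opposite strand of Dnm3 on chromosome 1. Mir214 was at 8.997 RPKM (109 reads) with empty vector, 15.3 (90 reads) with SKM, 5.16 (42 reads) with OSKM and 9.22 (102 reads) with G3SKM. Its lower value with OSKM than with SKM passed the rule, at 2.96-fold (2.03 to 4.38). Mir199a-2 was at 2.48 RPKM (30 reads) with empty vector, 1.02 (6 reads) with SKM, 0.737 (6 reads) with OSKM and 1.54 (17 reads) with G3SKM. It was 3.36-fold lower with OSKM than with empty vector (1.38 to 9.88). Dnm3os was at 5.13 RPKM with empty vector, 2.14 with SKM, 2.02 with OSKM and 4.41 with G3SKM, so with SKM Mir214 stood above its level with empty vector and its host and neighbour stood below theirs.

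The others of this list had at most 13 reads in any group. Mir21a, in the 3′ UTR of the autophagy gene Vmp1 in the annotation, was at 0.791 RPKM with empty vector, 1.83 with SKM, 0.294 with OSKM and 1.299 with G3SKM. Mir27a, in no other annotated gene, was at 1.26 RPKM with empty vector, 2.37 with SKM and 1.49 with G3SKM, with 0 reads with OSKM. With a floor of 3 reads put in for OSKM, it was 2.69-fold lower there than with empty vector. On the same floor it was 5.07-fold lower than with SKM. These folds leave out the counting error of the other group, and the counting interval against SKM began at 3.47-fold. Mir145a, on chromosome 18 in no other annotated gene, was at 1.24 RPKM with empty vector, 2.34 with SKM, 0.154 with OSKM and 1.58 with G3SKM. OSKM was the lowest group for each of these 3 genes.

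Mir143, neighbour of Mir145a, reached 1.11 RPKM (7 reads) with G3SKM with 1 read with empty vector and 0 reads with SKM and OSKM. Mir23b, in an intron of 2010111I01Rik, was at 0.562 RPKM with empty vector, 3.08 with SKM, 0.557 with OSKM and 0.616 with G3SKM. SKM was higher by 5.48-fold than empty vector (1.62 to 17.9), on 12 reads against 5. The reads of Mir145a, Mir23b, Mir1249 and Mir1306 are approximate, because their values were not whole multiples of a read at the annotated length.

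The miR-17-92 cluster and its relatives are known for promoting proliferation. Of 15 annotated genes of this family 10 were in the tables and 2, Mir92-1 and Mir25, reached 1 RPKM. Mir92-1, in an exon of the cluster's host transcript Mir17hg on chromosome 14, was at 0.569 RPKM (5 reads) with empty vector, 2.11 (9 reads) with SKM, 1.35 (8 reads) with OSKM and 5.61 (45 reads) with G3SKM. It was 9.85-fold higher with G3SKM than with empty vector (3.92 to 31.8) and 4.14-fold lower with OSKM than with G3SKM (1.93 to 10.2). Mir17hg followed the same groups, with log2 ratios of 1.81 and -1.04 in these comparisons. G3SKM was the highest group for the hairpin and for its host. The other hairpins of the cluster stayed under 1 RPKM and differed in their highest group. It was G3SKM for Mir19a and Mir20a, empty vector for Mir17 and Mir18, and SKM for Mir19b-1.

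Mir25 shares the seed of miR-92a and lies in the DNA helicase subunit gene Mcm7 on chromosome 5. Mir25 was at 0.650 RPKM (6 reads) with empty vector, 11.6 (52 reads) with SKM, 1.29 (8 reads) with OSKM and 2.85 (24 reads) with G3SKM. SKM stood apart, 17.8-fold above empty vector (7.66 to 50.8), 8.99-fold above OSKM (4.24 to 21.9) and 4.07-fold above G3SKM (2.46 to 6.91). Mcm7 did not: per exon length it was at 12.4 RPKM with empty vector, 26.8 with SKM, 29.6 with OSKM and 19.6 with G3SKM. With the GC trend removed, the log2 ratio of Mir25 with SKM against empty vector went from 2.93 to 2.48 and stayed past the rule. The other hairpins of the Mcm7 cluster, Mir106b and Mir93, had no reads with SKM or OSKM and at most 0.486 RPKM elsewhere.

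The let-7 family is known for restraining growth genes, and Lin28 proteins block its maturation. Of 12 annotated let-7 genes 6 were in the tables and 3 reached 1 RPKM. Mirlet7i was at 0.857 RPKM (8 reads) with empty vector, 2.42 (11 reads) with SKM, 0.159 (1 read) with OSKM and 0.703 (6 reads) with G3SKM. It was 15.2-fold lower with OSKM than with SKM, with an interval of 2.21 to 655 that shows how little 1 read fixes. Mirlet7c-2, in an exon of Lncppara on chromosome 15, had 0 reads with empty vector and with OSKM, 1 read with SKM and 15 reads with G3SKM, where it stood at 1.57 RPKM. With a floor of 3 reads put in for empty vector, G3SKM was 5.47-fold above it, a fold that leaves out the counting error of the G3SKM reads. Mirlet7b, in the same host, was at 0.428 RPKM with empty vector, 0.220 with SKM, 0.478 with OSKM and 1.06 with G3SKM, with at most 9 reads. Both Lncppara hairpins reached 1 RPKM with G3SKM alone, so their shared highest group follows from the choice of genes.

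Mir196a-1, a Hox cluster hairpin of chromosome 11 in no other annotated gene, was at 1.69 RPKM (19 reads) with empty vector, 3.66 (20 reads) with SKM, 3.05 (23 reads) with OSKM and 8.78 (90 reads) with G3SKM. It was 5.18-fold higher with G3SKM than with empty vector (3.14 to 9.01), 2.40-fold higher than with SKM (1.46 to 4.11), and 2.88-fold lower with OSKM than with G3SKM (1.81 to 4.77). With the GC trend removed, the log2 ratio of G3SKM against SKM went from 1.07 to 0.87, under the rule. It was the 1 gene of 6 annotated in the Hox list to reach 1 RPKM.

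Several other families stayed under 1 RPKM in every group. Of 14 annotated genes of the miR-290 and miR-302 clusters, the hallmark of mouse pluripotent cells, 3 were in the tables and the highest value was 0.181 RPKM. The 7 genes of the miR-200 family with miR-205 and miR-203, known from epithelia, gave 1 listed gene at 0.145 RPKM at most. None of 14 muscle and neural genes was listed. Of 7 genes of the miR-34, miR-192, miR-194 and miR-215 list, known for p53 control, 2 were listed and reached at most 0.390 RPKM, and of 9 of the miR-15 and miR-16 group 2 were listed, at most at 0.186 RPKM. At these depths a hairpin of median length with 3 reads would stand at 0.325 to 0.669 RPKM, depending on the group. Smaller values at that length rest on fewer reads, and a lack of reads cannot be told from a low level.

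Hairpins inside protein-coding genes made up much of the rest. Mir877, a mirtron whose hairpin is a spliced intron of Abcf1 on chromosome 17, was at 12.5 RPKM (117 reads) with empty vector, 32.6 (148 reads) with SKM, 33.1 (208 reads) with OSKM and 19.0 (162 reads) with G3SKM. It was 2.60-fold higher with SKM (2.03 to 3.34) and 2.64-fold higher with OSKM (2.10 to 3.35) than with empty vector. Abcf1, a factor of translation initiation, had log2 ratios of 1.15 and 0.90 in the same comparisons. After removal of the GC trend the log2 ratio of Mir877 with SKM was 0.86 and under the rule, while with OSKM it was 1.34.

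Mir1981, in an intron of Marc2 on chromosome 1, was lowest with empty vector. Its levels were 7.55 RPKM (68 reads) with empty vector, 32.7 (143 reads) with SKM, 43.3 (262 reads) with OSKM and 25.8 (212 reads) with G3SKM. It was called higher in each factor group, by 4.33-fold (3.22 to 5.86), 5.73-fold (4.37 to 7.60) and 3.41-fold (2.58 to 4.55) in that order, and these comparisons share the empty vector group. Marc2, a mitochondrial amidoxime reductase, was at 0.747 RPKM with empty vector, 1.69 with SKM, 2.14 with OSKM and 1.98 with G3SKM. It was thus also lowest with empty vector, by 2.26-, 2.86- and 2.65-fold, though under the rule, which adds 1 RPKM.

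Mir1903 moved the other way. It lies in the annotation in a 5′ UTR exon of Nrp1, a co-receptor for semaphorins and VEGF, on chromosome 8. Mir1903 was at 28.5 RPKM (250 reads) with empty vector, 8.20 (35 reads) with SKM, 3.05 (18 reads) with OSKM and 5.24 (42 reads) with G3SKM. It was called lower in each factor group, by 3.47-fold (2.43 to 5.10), 9.34-fold (5.79 to 16.02) and 5.44-fold (3.91 to 7.73). Nrp1 was at 1.28, 0.166, 0.222 and 0.228 RPKM, lower than with empty vector by 7.67-, 5.76- and 5.59-fold, and under the rule for its low levels, with log2 ratios of -0.97, -0.90 and -0.89 once 1 RPKM is added.

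Mir704 and Mir719 overlap exons of Pdia4, a disulfide isomerase of the endoplasmic reticulum, and of Nupl1, a nuclear pore gene. Mir704 was at 48.7 RPKM with empty vector, 13.4 with SKM, 33.6 with OSKM and 24.4 with G3SKM. Mir719 was at 37.9 RPKM with empty vector, 11.5 with SKM, 30.3 with OSKM and 19.6 with G3SKM. Both were lowest with SKM and were called lower there than with empty vector, by 3.63-fold (2.74 to 4.91) and 3.28-fold (2.54 to 4.30). Neither passed the rule with OSKM or G3SKM against empty vector. Mir546, in the 3′ UTR of the phosphatase gene Ctdsp2, had the same low point, at 27.7 RPKM with empty vector, 11.4 with SKM, 15.2 with OSKM and 18.9 with G3SKM. Mir1902, in the 3′ UTR of the kinase gene Hipk3, was at 15.0, 4.45, 8.64 and 7.23 RPKM. Mir1966, in Ripor1, was at 2.77, 0.692, 0.750 and 1.57 RPKM.

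A second set of exonic and intronic hairpins was highest with SKM. Mir762, which overlaps Bcl7c on the opposite strand and has the highest GC content of the 55, was at 27.6 RPKM with empty vector, 47.9 with SKM, 23.2 with OSKM and 15.6 with G3SKM. Mir702, in an exon of the lysyl hydroxylase gene Plod3, was at 23.99, 29.98, 17.96 and 17.9 RPKM. Mir705, in the 3′ UTR of Rab11fip5, was at 6.78, 19.4, 9.58 and 10.5 RPKM. Mir1982, in Oaz1, the gene of an inhibitor of polyamine synthesis, was at 5.55, 17.99, 9.16 and 9.71 RPKM. SKM against empty vector passed the rule for Mir705, at 2.87-fold (2.04 to 4.05), and for Mir1982, at 3.25-fold (2.20 to 4.82).

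Mir1306 lies in a coding exon of Dgcr8, the partner of Drosha. It was at 10.5 RPKM with empty vector, 23.3 with SKM, 17.6 with OSKM and 11.3 with G3SKM, whereas Dgcr8 was at 1.52, 1.09, 1.21 and 1.60 RPKM. Empty vector, OSKM and SKM thus stood in opposite order for the hairpin and its host. Mir761, with the seed of miR-214, overlaps an exon of the metalloprotease gene Nrd1 and was at 4.08, 9.87, 7.67 and 8.93 RPKM.

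Smaller values completed this set. Mir1901 had 0 reads with empty vector and stood at 5.05 RPKM with SKM, 0.695 with OSKM and 1.53 with G3SKM. Mir1895 was at 0.346, 3.79, 1.54 and 1.26 RPKM, Mir718 at 0.517, 2.34, 0.769 and 0.566 RPKM, and Mir707 at 3.999, 6.94, 5.76 and 2.87 RPKM. All 4 were highest with SKM and rest on at most 32 reads. Mir718 was chosen through its SKM value alone, so its highest group follows from the choice of genes.

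All 3 genes typed as snoRNA were highest with G3SKM. Mir5117, in Gas5, a non-coding RNA whose introns carry snoRNAs, was at 5.85 RPKM (54 reads) with empty vector, 2.45 (11 reads) with SKM, 7.09 (44 reads) with OSKM and 18.4 (155 reads) with G3SKM. It was 3.14-fold higher with G3SKM than with empty vector (2.29 to 4.37) and 7.50-fold higher than with SKM (4.08 to 15.3). Gas5 had log2 ratios of 1.08 and 0.77. Mir1949, also typed as snoRNA, was at 2.76 RPKM with empty vector, 5.55 with SKM, 4.40 with OSKM and 12.0 with G3SKM, 4.33-fold higher with G3SKM than with empty vector (3.08 to 6.20). Mir3068, in an intron of Alkbh1, was at 0.467, 0.274, 0.198 and 1.09 RPKM, with at most 15 reads. It is among the 55 through G3SKM alone, so its highest group follows from the choice of genes.

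Mir1249 (22 reads with G3SKM), Mir1898 (12 reads) and Mir697 (13 reads) were also called higher there than with empty vector. Each was chosen through its G3SKM value alone, so its highest group follows from the choice of genes. Mir1249 was at 0.277 RPKM with empty vector, 0.854 with SKM, 0.206 with OSKM and 2.27 with G3SKM. Mir1898, in an intron of Zfr, had 0 reads with empty vector and SKM and reached 0.326 RPKM with OSKM and 1.44 with G3SKM. Mir697, in an intron of the splicing factor gene Sf3a3, had 1 read with empty vector and with OSKM and none with SKM. For Mir697 and Mir1898 the host differed little, with log2 ratios of 0.01 and -0.15 between G3SKM and empty vector.

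The genes not yet described rested on few reads or were called in no comparison. Mir147, in the 3′ UTR of AA467197, was at 0.115 RPKM with empty vector, 1.42 with SKM, 0.172 with OSKM and 1.14 with G3SKM, with at most 9 reads. Mir1945 was at 0.117, 0.961, 1.56 and 0.128 RPKM, also with at most 9 reads. From the lowest to the highest group, Mir678 ran from 10.9 to 13.4 RPKM, Mir1905 from 8.02 to 14.6, Mir1896 from 4.50 to 9.48, Mir671 from 3.45 to 6.31, Mir700 from 3.66 to 5.93, Mir1893 from 2.16 to 4.06 and Mir343 from 0.365 to 1.33. These 7 were called in no comparison. Of the 55 genes 41, or 74.5%, were called in at least 1 comparison, beside 81.8% of the other genes of at most 141 bases and 23.1% of all genes.

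Other short genes bear on these values. Genes of at most 141 bases outside the 55, most of them snoRNAs, had a median of 6.09 RPKM with G3SKM against 2.37 with empty vector, 2.72 with SKM and 2.72 with OSKM. Between G3SKM and empty vector 54.4% of 237 such genes were called higher and 1.27% lower, and 119 of 175 snoRNAs were higher. Between OSKM and G3SKM 45.6% of 237 were lower. The microRNA genes moved less than this class, with a median log2 ratio of 0.14 against 1.07 with G3SKM over empty vector, and of -0.51 against -0.96 with OSKM over G3SKM. The snoRNAs of the class had medians of 1.31 and -1.12. Its genes that are neither snoRNA nor snRNA had 0.32 (7 of 51 higher, 2 lower) and -0.19 (1 of 47 higher, 4 lower). Beside these the microRNA genes had the smaller median in the first comparison and the larger drop in the second. The part of this difference between libraries in the values of single hairpins was not tested.

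**Figure D3:**
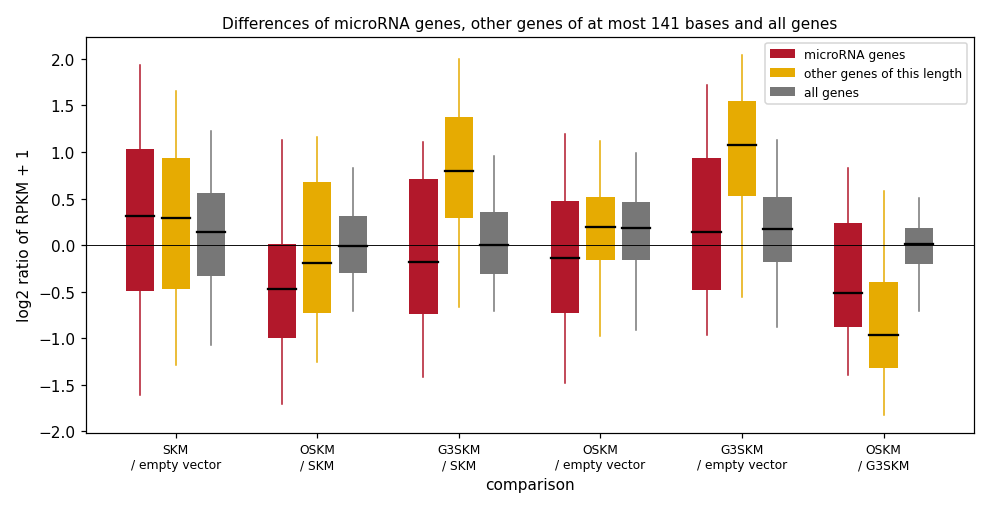
Log2 ratios of RPKM + 1 for the microRNA genes, other genes of at most 141 bases and all genes in the 6 comparisons, with the median (black line), the quartiles (box) and the 5% to 95% range (thin line). In G3SKM over empty vector the median is 1.07 for the other short genes and 0.14 for the microRNA genes.

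SKM against empty vector compares cells with the 3 shared factors and cells with none. Of 47 microRNA genes compared 12 were higher and 7 lower, where 8.88% and 5.98% of all genes were higher and lower. Those higher were Mir1981, Mir877, Mir1306, Mir705, Mir1982, Mir25, Mir761, Mir1901, Mir1895, Mir23b, Mir718 and Mir147, and those lower were Mir704, Mir719, Mir1903, Mir546, Mir1902, Mir692-1 and Mir1966. The median log2 ratio was 0.31 over these genes and 0.14 over all genes, and after centring on the latter 8 were higher and 8 lower. Of the other short genes 23.3% were higher and 11.9% lower, and shares of that size are thus not particular to these 47. The other short genes still hold some typed miRNA under other names, among them near copies such as Gm22133 and Gm22758. They therefore do not show what is particular to microRNA genes as a type.

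The values of the SKM library follow GC content, with a Spearman correlation of 0.50 between log2 ratio and transcript GC over 9455 genes against empty vector. Over the 47 microRNA genes the correlation with hairpin GC was 0.27, and the points share 1 library pair. With this trend removed, in medians over 20 bins of GC, 9 were higher and 6 lower, beside 6.01% and 4.25% of all genes. The bins hold equal numbers of genes, so the end bins are wide. Hairpins from 61.2% GC (Mir671) to 82.9% (Mir762) had the same shift, as had Mir5117 at 31.0% and Mir1902 at 35%. In these end bins the shift does not follow a hairpin's own GC. Mir877, Mir1306, Mir761 and Mir718 were then no longer higher, and Mir546, Mir1902 and Mir1966 no longer lower. Mir92-1 came in as higher, and Mir199a-2 and Mir770 as lower.

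OSKM against SKM asks what OCT4 adds to the 3 factors. Here 3 of 46 genes were higher (Mir704, Mir719 and Mir5117) and 12 lower, beside 2.55% and 1.64% of all genes. The lower ones were Mir762, Mir1903, Mir22, Mir214, Mir25, Mir1901, Mir23b, Mirlet7i, Mir27a, Mir145a, Mir21a and Mir147. The median log2 ratio was -0.47, against -0.01 over all genes and -0.19 over the other short genes, of which 14.4% were lower. With the GC trend removed 2 were higher (Mir704 and Mir770) and 10 lower, beside 1.07% and 1.03% of all genes. Mir719 and Mir5117 were then no longer higher, and Mir762 and Mir22 no longer lower. The correlation with GC was -0.18 over the 46 genes and -0.71 over all genes.

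G3SKM against SKM asks the same of GATA3. Of 54 genes 7 were higher and 9 lower, beside 4.43% and 1.1% of all genes and 42.2% and 2.95% of the other short genes. Higher were Mir5117, Mir196a-1, Mir92-1, Mirlet7c-2, Mir1898, Mir697 and Mir143, and lower were Mir675, Mir762, Mir25, Mir707, Mir1901, Mir1895, Mir23b, Mirlet7i and Mir718. The correlation with GC was -0.58 over these genes and -0.72 over all genes. With the trend removed 7 were higher and 4 lower (Mir675, Mir762, Mir25 and Mir23b), beside 1.97% and 0.603% of all genes. The 7 higher were then Mir5117, Mir1949, Mir1249, Mirlet7c-2, Mir770, Mir697 and Mir143, without Mir196a-1, Mir92-1 and Mir1898. Mir762, still lower at a log2 ratio of -1.03, and Mir5117 lie in the end bins, where the shift does not follow a hairpin's own GC.

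**Figure D4:**
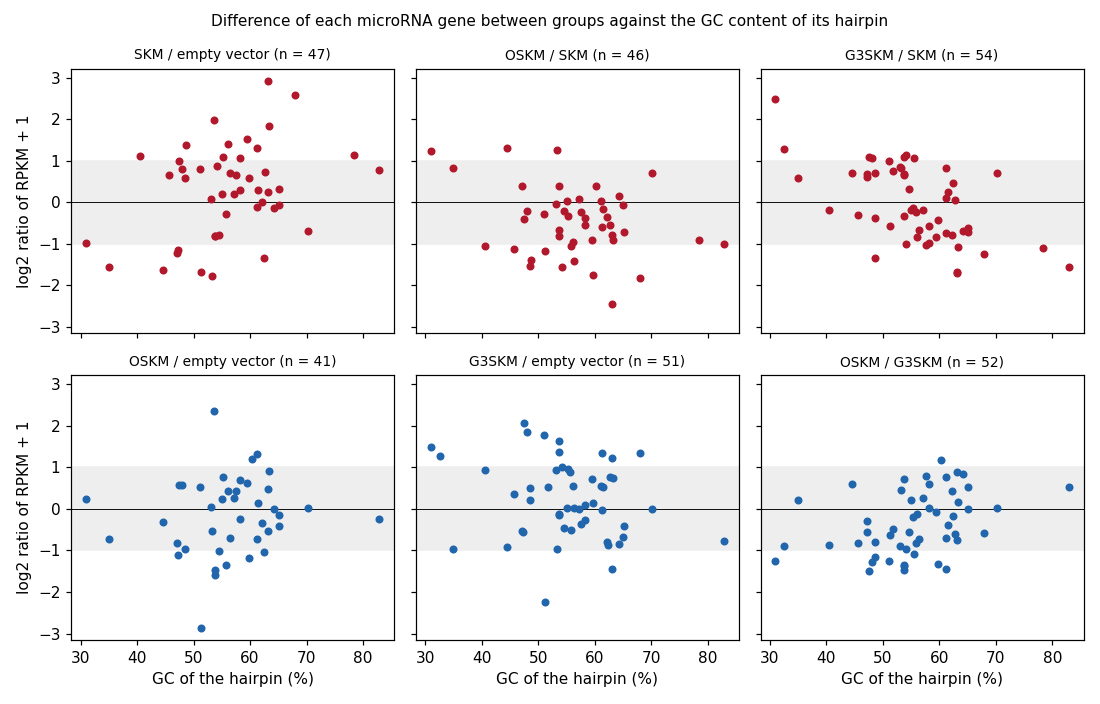
Log2 ratio of RPKM + 1 of each microRNA gene against the GC content of its hairpin, with comparisons that include the SKM library on top and the others below, and the band under the rule of size in grey. Hairpins of low GC lie high and those of high GC lie low with G3SKM against SKM.

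Comparisons that leave out the SKM library take their columns from different tables, which share the SKM column. In OSKM against empty vector 3 of 41 genes were higher (Mir1981, Mir877 and Mir1945) and 8 lower (Mir1906-1, Mir1906-2, Mir1903, Mir22, Mir692-1, Mir1966, Mir199a-2 and Mir27a), beside 4.82% and 4.16% of all genes. The median log2 ratio was -0.14 for the microRNA genes, 0.18 for all genes and 0.20 for the other short genes. In G3SKM against empty vector 11 of 51 were higher and 2, Mir675 and Mir1903, lower, beside 7.11% and 3.75% of all genes. Centred on the median of all genes, 0.17, this became 10 higher and 7 lower. Between OSKM and G3SKM 1 of 52 was higher with OSKM (Mir1945, on 9 reads against 1) and 11 lower, beside 0.724% and 2.25% of all genes. Those 11 were Mir1906-1, Mir1906-2, Mir5117, Mir1949, Mir196a-1, Mir92-1, Mir27a, Mir145a, Mir1249, Mirlet7c-2 and Mir143. Correlations with hairpin GC were 0.15, -0.19 and 0.42 in these 3 comparisons, and between -0.01 and 0.06 over all genes.

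The hosts moved with their hairpins in some comparisons more than in others. A listed host was available for 42 of the 55 genes. In G3SKM against empty vector 35 of 40 pairs had the same sign, with a Spearman correlation of 0.80 between the log2 ratios. In OSKM against empty vector it was 28 of 33 pairs and 0.78, and with SKM against empty vector 28 of 38 and 0.60. Against SKM the figures were 24 of 37 and 0.29 for OSKM, and 23 of 42 and 0.41 for G3SKM, and between OSKM and G3SKM 26 of 40 and 0.43. All pairs share the same libraries, a host and its hairpin can share reads, and Meg3 and Dnm3os each stand for 2 hairpins, so these numbers are descriptions.

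**Figure D5:**
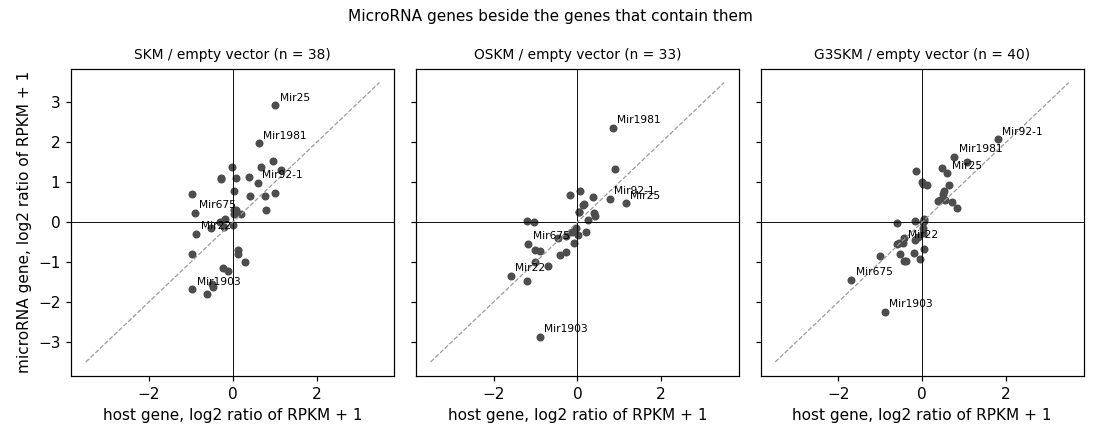
Log2 ratio of each microRNA gene (vertical) against that of the gene that contains it (horizontal) for the 3 factor groups over empty vector, with the line of equality dashed. Most pairs have the same sign in each panel. Mir1981 lies above the line and Mir1903 below it in all 3 panels. Mir25 lies above the line with SKM and G3SKM and below it with OSKM.

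Of 32 listed processing and effector genes 24 reached 1 RPKM, and 0 were higher and 0 lower in any of the 6 comparisons, beside 0.724% to 8.88% of all genes in a comparison and direction. At those shares few calls among 24 genes are to be met with, so the count says little about the list. These values divide by gene span with introns and are comparable within a gene only. Drosha, the nuclear nuclease, was at 0.646 RPKM with empty vector, 1.39 with SKM, 1.39 with OSKM and 0.995 with G3SKM. Its RPKM was 2.15-fold higher with SKM than with empty vector (2.08 to 2.21), a log2 ratio of 0.54 with 1 RPKM added. Mov10, an RNA helicase that binds Argonaute proteins, was at 1.03, 2.14, 2.30 and 1.36 RPKM, 2.08-fold higher with SKM (1.97 to 2.19) and 2.24-fold higher with OSKM (2.13 to 2.35) than with empty vector. Xpo5, the export receptor, was at 1.65, 1.71, 1.87 and 1.73 RPKM, and Dicer1 at 0.875, 1.01, 1.18 and 1.07 RPKM. Ago2, the slicing Argonaute, was at 0.896, 1.09, 1.45 and 0.786 RPKM.

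The let-7 blockers were low in every group. Lin28a had 0 reads with empty vector and was at 0.148 RPKM with SKM, 0.0794 with OSKM and 0.168 with G3SKM. Lin28b was at 0.00385 RPKM with empty vector, 0.0374 with SKM, 0.0798 with OSKM and 0.0693 with G3SKM. Both were below 1 RPKM in every group and so in no comparison, although each was higher in all 3 factor groups than with empty vector.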

How the data were processed

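Long-fragment RNA-seq was made from amplified, sonicated cDNA, per the labels' protocols, and TopHat 1.3.0 and the build mm9 come from the submitters' processing notes. Per the file headers, the authors' 3 deposited tables give RPKM per gene and the log2 ratio of each table's 2 RPKM columns. The counter, the annotation and the way the 2 replicates per group were combined are each not given in the sources used here. A value of 0.001 was read as 0. Symbols, spans and hosts came from GENCODE M21, which covers 25103 of 27597 genes. Values times span (end minus start) fell on whole reads for 51 of the 55 genes in all 4 columns, which gave depth and reads. Close copies were found with blastn 2.17.0 (95% identity over 90% of the hairpin). The procedure was tested on simulated data.

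Named are the 8 highest genes per group, those past the rule with 10 or more reads in the higher group, list members at 1 RPKM, threshold neighbours, hosts, and fixed processing genes. Mir147 and Mir1945 were called on fewer reads and are named in the counts. The genes and lists were chosen with earlier results of these data known. Alternatives were other pseudocounts, filters and sizes, centring, a read minimum, GC removal and counting intervals. Other short genes, copies and gene type were examined after seeing the data. Python 3.11.15, pandas 2.3.3, SciPy 1.17.1 and matplotlib 3.10.9 were used.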

Additional observations from a re-analysis of the deposited data

How the results depend on the processing

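No paired analysis was possible because each group has 1 value that combines its replicates, and for the same reason no replicate could be left out. Of 86 calls of single genes none reversed under the 9 settings planned. GC removal took 20 below the rule, a minimum of 10 reads 8, centring on the median of all genes 5, the counting interval 1, a filter at 5 RPKM 37, a pseudocount of 5 RPKM 55 and a size rule of 2 took 78. The number of genes past the rule went from 19 to 10 (pseudocount 5) and 2 (size rule 2) in SKM against empty vector, from 15 to 3, 9 (filter at 5 RPKM) and 1 in OSKM against SKM, and from 16 to 4, 8 and 1 in G3SKM against SKM in the same order. It went from 11 to 6, 6 and 2 in OSKM against empty vector, from 13 to 6, 7 and 2 in G3SKM against empty vector, and from 12 to 2, 6 and 0 in OSKM against G3SKM. A pseudocount of 0.1 RPKM gave 23 in G3SKM against empty vector and 21 in OSKM against G3SKM. Centring turned 12 higher and 7 lower into 8 and 8 in SKM, and 11 and 2 into 10 and 7 in G3SKM, both against empty vector. GC removal turned 7 higher and 9 lower into 7 and 4 in G3SKM against SKM, and the 7 higher were not all the same genes. Without genes that have close copies elsewhere, or with genes typed miRNA alone, the totals stayed within 1.5 times, though the lower genes in OSKM against empty vector went from 8 to 5 without those copies. Low reads limit most values.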
